A study of Mus musculus with 24 samples.

Results

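Xenobiotic receptors are transcription factors that sense foreign and endogenous small molecules and switch on the enzymes that clear them. The pregnane X receptor (PXR, Nr1i2) and the constitutive androstane receptor (CAR, Nr1i3) act with retinoid X receptors, and the aryl hydrocarbon receptor (AHR, Ahr) acts with Arnt. Their best known targets in liver are cytochrome P450 monooxygenases, which take their electrons mainly from P450 oxidoreductase (Por) and are most abundant in hepatocytes near the central vein. The 10 genes described here are these 3 receptors, Por, and the P450 genes Cyp1a2, a classical AHR target, Cyp2b10, a classical CAR target, Cyp3a11, a classical PXR target, Cyp2c29 and Cyp2c55, which respond to CAR and PXR, and Cyp2a5, the coumarin 7-hydroxylase, which responds to several receptors and to NRF2. They were chosen by gene symbol among 15160 listed genes, and all 10 passed the filter on low counts that left 13336 genes to test.

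Livers came from male mice of 5 months that carried floxed Nfe2l2 alleles, the gene of the stress-responsive factor NRF2. WT mice were NRF2fl/fl, and NRF2 KO mice carried in addition the Alb-Cre transgene, in which the albumin promoter drives Cre in hepatocytes, so NRF2 was left in the other liver cells. From 8 weeks of age both genotypes ate for 8 weeks a control (Con) diet with 0.86% methionine or a methionine-restricted (MR) diet with 0.17%. The study then describes calorimetry and a return to home cages before tissue harvest, and the mice were killed after a fast of 4 h. The comparisons ask how MR changes these genes in each genotype, how the loss of hepatic NRF2 changes them on each diet, and whether the response to MR differs between genotypes. The groups were WT Con (n = 5), WT MR (n = 5), NRF2 KO Con (n = 6) and NRF2 KO MR (n = 6), without the mice WT_CON_7604 and WT_MR_7612, which the study set aside as outliers of a principal component analysis. Libraries held 6197291 to 22068338 counts from 3′ ends of transcripts, and levels are in CPM, each count relative to its library's total after TMM normalization. A gene was called where the adjusted p of edgeR's quasi-likelihood test, over all genes tested, was under 0.05, and log2 fold changes carry their standard error (SE). The hepatocyte gene Alb stood at 52240 to 93640 CPM in every mouse.

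One library stood apart in Nfe2l2 and in genes that NRF2 controls, which were chosen for this check after values were seen. The library labelled WT_CON_7607 held 324.0 CPM of Nfe2l2 reads, which come from the 3′ end of the gene, against 106.3 to 125.0 in the other WT Con mice and 227.8 to 339.2 in NRF2 KO Con. These 3′ reads were higher in NRF2 KO than in WT (log2 fold change 0.83 on Con, adjusted p = 0.045, and 1.18 on MR, adjusted p = 0.0035; on Con it was 1.27, adjusted p = 6.4e-09, without this library), so they do not measure the loss of the protein. The same library held 1.59 CPM of Nqo1, a quinone reductase controlled by NRF2, against 3.55 to 6.98 in the other WT Con mice and 0.563 to 1.33 in NRF2 KO Con. It held 438.7 CPM of Gstm1, a glutathione transferase, against 921.9 to 2075 and 247.3 to 364.8, so that both genes lay between the groups. Ugdh, which supplies UDP-glucuronate, and Gsta1, another glutathione transferase, lay inside the NRF2 KO Con range. Ugdh was at 44.1 CPM, against 80.7 to 134.5 in the other WT Con mice and 30.4 to 52.5 in NRF2 KO Con. Gsta1 was at 0.0722 CPM, against 1.2 to 8.11 and 0 to 0.272. In clock genes it stood with the other WT Con mice. Its clock score, the level of clock output genes relative to the positive arm, was 2.32. That lay inside the WT Con range of 0.78 to 2.85 and under the 3.61 to 4.02 of NRF2 KO Con. Dbp stood at 90.4 CPM, under the 125.1 to 205.9 of NRF2 KO Con. Clock genes do not measure the Nfe2l2 genotype, and whether the label is right was not tested. Results on the members and counts of the lists that change without it are given both ways.

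The upstream sequences of the members called in any comparison are shown because these genes moved and their control regions can be read beside the values. RefSeq's promoter table (GRCm38.p6) held 9 of the 10 members and not Ahr. Each window has 250 bases before the start and 50 after it, and what is printed stops where GENCODE M21 places an exon of the gene. Capitals mark a match to a searched motif on either strand.
Por, chr5:135688895-135689035, plus strand: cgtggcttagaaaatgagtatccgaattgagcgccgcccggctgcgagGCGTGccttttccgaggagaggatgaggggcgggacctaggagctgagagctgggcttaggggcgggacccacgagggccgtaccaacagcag
Cyp2a5, chr7:26835089-26835304, plus strand: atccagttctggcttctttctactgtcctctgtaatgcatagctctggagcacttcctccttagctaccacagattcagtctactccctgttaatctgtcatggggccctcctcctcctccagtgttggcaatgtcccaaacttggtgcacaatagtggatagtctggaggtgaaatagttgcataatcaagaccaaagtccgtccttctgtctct
Cyp2c55, chr19:39006769-39007018, plus strand: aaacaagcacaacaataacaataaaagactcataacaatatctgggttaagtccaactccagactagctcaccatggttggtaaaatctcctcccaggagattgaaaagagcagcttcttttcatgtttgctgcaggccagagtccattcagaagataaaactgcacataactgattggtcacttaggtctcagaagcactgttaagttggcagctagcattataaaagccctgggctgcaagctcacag
Nr1i2, chr16:38294825-38295074, minus strand: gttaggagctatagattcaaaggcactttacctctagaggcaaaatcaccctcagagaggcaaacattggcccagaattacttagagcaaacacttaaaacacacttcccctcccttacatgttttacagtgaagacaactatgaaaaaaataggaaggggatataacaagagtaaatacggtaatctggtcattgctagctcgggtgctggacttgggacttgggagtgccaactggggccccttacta

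The AHR core GCGTG occurred 3 times in the Por window and also in that of Cyp2b10, and 32.4% of 32851 promoter windows held it. The nuclear receptor letters AGGTCA and AGTTCA occurred in the windows of Cyp2a5, after its start, Cyp2c29 and Cyp3a11, against 27.7% of all windows. Pairs of such hexamers in direct repeat with 4 bases between them (0.0274% of all windows) or 3 (0.0122%), which contain the single hexamers, the antioxidant response element core TGACNNNGC (12.4%) and the D-box letters TTATGTAA or TTACGTAA (1.06%) were in none of the 9 windows.

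MR raised 3 of the 10 members in WT, Cyp2a5, Por and Ahr, and 4 in NRF2 KO, Cyp2a5, Por, Cyp2c55 and Nr1i2, and it lowered none of them past the threshold in either genotype. Of all genes tested, 13.8% were called in WT (6.91% higher) and 12.6% in NRF2 KO (6.23% higher). Loss of NRF2 lowered Cyp2a5 on MR, where 1.93% of all genes were called (1.38% lower). It called 0 of the 10 on Con, where 2.07% of all genes were called, 1 member (14.4% of all genes) had an unadjusted p under 0.05 and DESeq2 called 1 member. The interaction of genotype and diet called 0 members and 0.045% of all genes, with 2 members (7.56% of all genes) at an unadjusted p under 0.05 and 0 members called by DESeq2. The MR estimates had the same sign in both genotypes for 10 of 10 members, as they did for 71.7% of all genes, and Cyp2a5 and Por were called in both, as were 5.89% of all genes; these 2 comparisons share no mice. The mice of both diets did not overlap for 2 members in WT (9.32% of all genes) and 3 in NRF2 KO (5.45%), and those of both genotypes for 0 on Con (1.83%) and 3 on MR (4.6%).

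**Figure D1:**
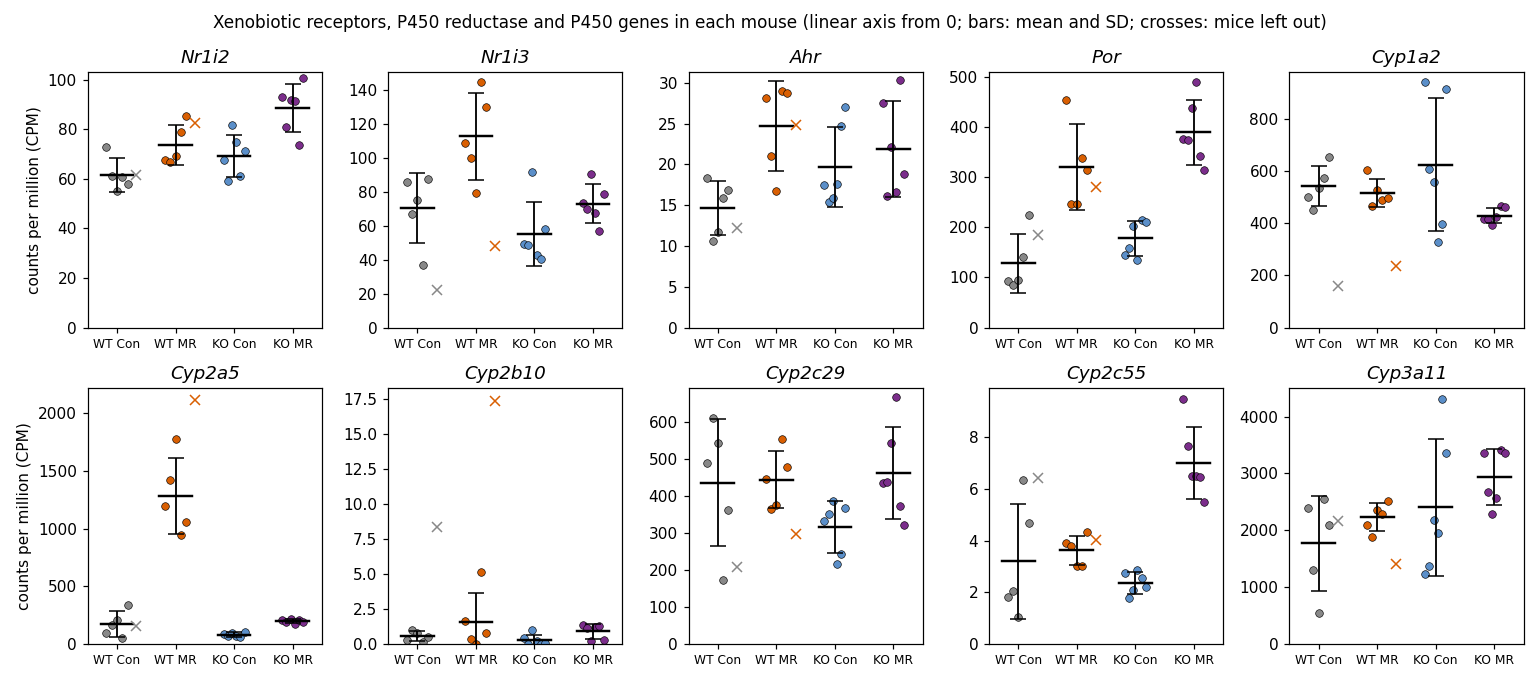
Level of each of the 10 genes in CPM (vertical axis, linear from 0) in every mouse of the 4 groups (horizontal axis), with bars for the mean and SD and crosses for the 2 mice set aside. Cyp2a5 in WT MR lies between 947.5 and 1777 CPM, above all the other mice kept.

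Cyp2a5 (ENSMUSG00000005547, chr7:26835305-26843548, GRCm38, plus strand) had the largest called changes of the 10 genes. In WT Con its level was 89.9, 164.1, 206.6, 51.0 and 335.8 CPM (mean 169.5 ± 111.2, SD, n = 5), with the library labelled WT_CON_7607 the lowest. In WT MR it was 1198, 1423, 1777, 947.5 and 1054 CPM (1280 ± 330.2, n = 5), so that every restricted mouse lay above every control mouse. The fitted increase was 7.54-fold (log2 2.92, SE 0.36, adjusted p = 4.5e-05), and it was 2.69 (adjusted p = 2.0e-05) on the log2 scale without WT_CON_7607. In NRF2 KO Con the 6 mice ran from 55.9 to 104.6 CPM with a median of 77.4, and in NRF2 KO MR from 171.9 to 216.6 with a median of 197.4. These groups did not overlap either, and the increase was 2.45-fold (log2 1.29, SE 0.31, adjusted p = 0.010). The gene rose on MR in both genotypes, and on MR the highest NRF2 KO MR mouse lay below the lowest WT MR mouse, with 6.53-fold less in NRF2 KO (log2 -2.71, SE 0.33, adjusted p = 5.3e-05).

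On Con, Cyp2a5 was lower in NRF2 KO by a log2 estimate of -1.08 that missed the threshold (SE 0.32, adjusted p = 0.091), and the groups overlapped. Without the library labelled WT_CON_7607 the estimate was -1.32 (adjusted p = 0.0069), and without WT_CON_7608, the highest mouse of WT Con, it was -0.68 (adjusted p = 0.29). DESeq2 called it (-1.08, adjusted p = 0.022), while limma on the deposited normalized values gave -0.83 (adjusted p = 0.25) and quality weights over all 24 mice -0.77 (adjusted p = 0.24). The difference of the MR effects, NRF2 KO minus WT, was -1.62 (SE 0.45, unadjusted p = 0.002), an interval of -2.51 to -0.74, and missed the threshold over all genes (adjusted p = 0.32). It was -1.39 (adjusted p = 0.30) without WT_CON_7607.

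**Figure D2:**
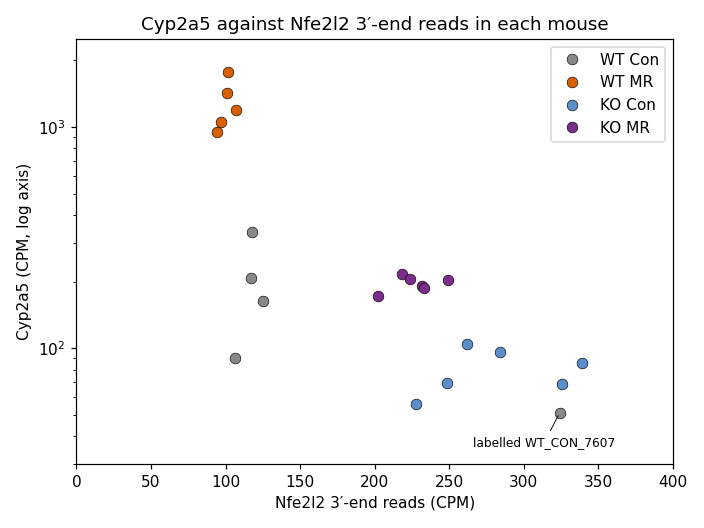
Cyp2a5 level (vertical log axis, CPM) against the 3′ reads of Nfe2l2 (horizontal axis, CPM) in each of the 22 mice, coloured by group. The library labelled WT_CON_7607 lies at 324.0 CPM of Nfe2l2 and 51.0 of Cyp2a5, inside the Nfe2l2 range of the NRF2 KO Con mice (227.8 to 339.2) and below all their Cyp2a5 levels (55.9 to 104.6).

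Cyp2a5 has a near-identical neighbour, Cyp2a4, a steroid hydroxylase more abundant in female liver. Of the windows of 50 bases in the last 500 bases of the Cyp2a5 transcript, 12.4% occur exactly in Cyp2a4, so reads there could be split between both genes. Cyp2a4 stood at 23.1 ± 33.8 CPM in WT Con, 306.1 ± 310.3 in WT MR, 3.37 ± 4.16 in NRF2 KO Con and 162.1 ± 67.9 in NRF2 KO MR, and it was called for MR in both genotypes (adjusted p = 0.034 and 0.0044). With the counts of both genes summed, a choice made after seeing the data, the MR effect was 3.04 in WT and 2.10 in NRF2 KO on the log2 scale, the KO effect was -2.15 on MR (adjusted p = 0.00076) and -1.21 on Con (adjusted p = 0.059), and the difference of the MR effects was -0.94 (adjusted p = 0.66). Without the library labelled WT_CON_7607, Cyp2a4 alone was not called for MR in WT (adjusted p = 0.071), and the summed counts gave 2.82 for MR in WT (adjusted p = 3e-05) and -1.43 for NRF2 KO on Con (adjusted p = 0.0069).

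Por (ENSMUSG00000005514, chr5:135670033-135735326, plus strand), the main electron donor of the microsomal P450s, rose on MR in both genotypes. WT Con mice had 92.6, 84.2, 95.9, 141.7 and 225.5 CPM, and WT MR mice 454.9, 246.0, 245.7, 337.7 and 314.0 CPM. The NRF2 KO mice ran from 134.4 to 214.8 CPM on Con (median 181.1) and from 315.0 to 489.4 on MR (median 375.8). Neither pair of groups overlapped, and the log2 change was 1.32 in WT (SE 0.24, adjusted p = 0.0012) and 1.13 in NRF2 KO (SE 0.22, adjusted p = 0.0021). The difference between these effects was -0.19, with an interval of -0.81 to 0.44. Por was not called between genotypes on Con (0.47, adjusted p = 0.35), though without WT_CON_7608, the highest mouse of WT Con, it was (0.78, adjusted p = 0.039).

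Clock output genes moved with MR in WT and with NRF2 KO on Con, while 1 of 9 was called on MR in NRF2 KO. A clock score, the mean log2 CPM of 9 output genes minus that of 6 genes of the positive arm, was 1.96 ± 0.79 in WT Con, 3.40 ± 0.55 in WT MR, 3.79 ± 0.13 in NRF2 KO Con and 4.09 ± 0.07 in NRF2 KO MR. Of the 9 output genes 6 were called higher on MR in WT (median log2 change 0.57), 1 on MR in NRF2 KO (median 0.063) and 7 in NRF2 KO on Con (median 0.97). Leaving out WT_CON_7607 gave 4, 1 and 6. All genes tested were called higher on MR for 6.91% in WT and 6.23% in NRF2 KO. Between genotypes on Con, 2.07% were called in either direction. Dbp, a PAR bZIP factor that follows the clock, rose on MR in WT (0.57, adjusted p = 0.049, or 0.58, adjusted p = 0.077, without WT_CON_7607), and on Con it was higher in NRF2 KO than in WT (0.97, adjusted p = 0.0051). With the score as a covariate the change of Por on MR was 0.55 in WT (adjusted p = 0.19) and 0.97 in the NRF2 KO mice (adjusted p = 0.00066). That of Cyp2a5 was 2.57 (adjusted p = 0.0027) and 1.21 (adjusted p = 0.017), and that of Ahr in WT was 0.60 (adjusted p = 0.30). The score comes from the same libraries and differs between the groups. It ran from 0.78 to 2.85 in WT Con, 2.47 to 3.92 in WT MR, 3.61 to 4.02 in NRF2 KO Con and 4.01 to 4.20 in NRF2 KO MR. Its share in these changes and those of diet and genotype cannot be told apart in such a fit.

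**Figure D3:**
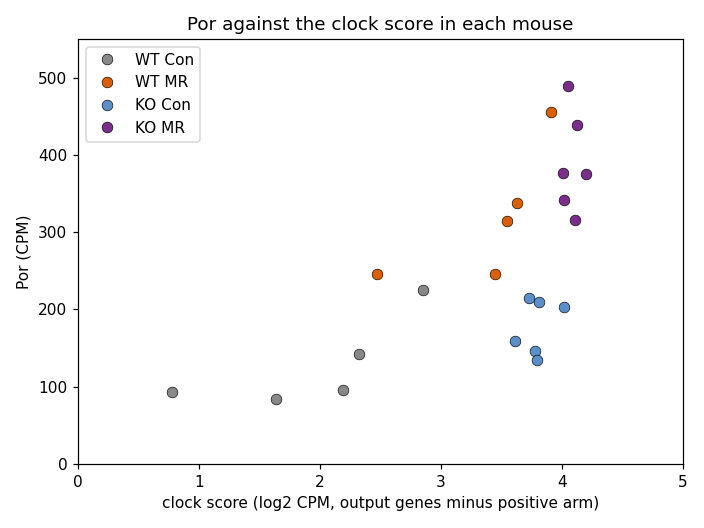
Por level (vertical axis, CPM) against the clock score (horizontal axis, log2 CPM) in each of the 22 mice, coloured by group. WT Con mice span scores from 0.78 to 2.85, while the 6 NRF2 KO Con and 6 NRF2 KO MR mice lie between 3.61 and 4.20 and separate on the Por axis.

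Of the receptors, Ahr was called on MR in WT and Nr1i2 on MR in NRF2 KO. Ahr (ENSMUSG00000019256, chr12:35497974-35535038, minus strand) was at 18.4, 10.6, 11.7, 15.8 and 16.8 CPM in WT Con and at 28.1, 21.0, 16.8, 28.9 and 28.8 CPM in WT MR. The groups overlapped in 1 mouse, WT_MR_7613, and the log2 change was 0.75 (SE 0.21, adjusted p = 0.023). The call was lost without WT_CON_7603, WT_CON_7605, WT_MR_7609, WT_MR_7615 or WT_MR_7616, each left out alone (0.65 to 0.69). In NRF2 KO, Ahr ran from 15.4 to 27.1 CPM on Con and from 16.1 to 30.3 on MR, almost the same range, with a change of 0.17 (adjusted p = 0.62). The effects differed by -0.58, with an adjusted p of 0.67. Without the library labelled WT_CON_7607 the changes on MR in WT were 0.78 for Ahr (adjusted p = 0.034), 1.36 for Por (adjusted p = 0.0031) and 0.26 for Nr1i2 (adjusted p = 0.12).

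Nr1i2 (ENSMUSG00000022809, chr16:38248323-38294824, minus strand) rose on MR in NRF2 KO, from 59.1 to 81.9 CPM on Con (median 69.5) to 73.8 to 100.8 on MR (median 91.7). The log2 change was 0.35 (SE 0.09, adjusted p = 0.013), and the groups overlapped. In WT the mice had 72.8, 61.1, 55.0, 60.7 and 57.9 CPM on Con and 67.7, 66.9, 69.2, 78.8 and 85.1 on MR, with a change of 0.26 (adjusted p = 0.089). It passed the threshold without WT_CON_7602, the highest mouse of WT Con (0.32, adjusted p = 0.036), with all 24 mice (0.28, adjusted p = 0.038) and with scaling by library size only (0.35, adjusted p = 0.021). The estimates differed by 0.10, with an interval of -0.17 to 0.36.

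Nr1i3 (ENSMUSG00000005677, chr1:171213970-171220701, plus strand) was not called in any comparison, but it was near the threshold for MR in WT. Its levels were 85.8, 66.6, 75.4, 37.1 and 87.7 CPM in WT Con and 109.0, 99.98, 79.5, 144.5 and 129.9 in WT MR, and the log2 estimate was 0.67 (SE 0.23, adjusted p = 0.058). The lowest WT Con value was again that of the library labelled WT_CON_7607, without which the estimate was 0.51 (adjusted p = 0.11). DESeq2 (0.68, adjusted p = 0.021) and the deposited normalized values with limma (0.71, adjusted p = 0.047) placed it past the threshold. The NRF2 KO mice ran from 40.1 to 91.5 CPM on Con and from 56.6 to 90.7 on MR (0.40, adjusted p = 0.23). On MR it was lower in NRF2 KO by an estimate of -0.63 (adjusted p = 0.16), which passed the threshold in a fit of the compared groups only (adjusted p = 0.038). Its last 500 bases overlap Tomm40l on the opposite strand, and whether the counting used strand is not given in the sources used here, so its reads and those of Tomm40l may not be separable.

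The receptors' partners and regulators were 18 tested genes such as the retinoid X receptors and Arnt. Of these, 1 was called higher on MR in each genotype, and 1 lower on MR in NRF2 KO. For all genes tested the shares called on MR were 13.8% in WT (6.91% higher) and 12.6% in NRF2 KO (6.23% higher). Hsp90ab1, a chaperone that holds AHR and CAR in the cytosol, rose by 0.41 in WT (adjusted p = 0.0012), with 0.32 in NRF2 KO (adjusted p = 0.0049). Of 14 genes of electron supply and heme other than Por, 1 was higher and 2 lower on MR in WT. Cyb5r3, the reductase of cytochrome b5, fell by 0.67 in WT (adjusted p = 0.0005), with -0.55 in NRF2 KO (adjusted p = 0.0014), in the direction opposite to Por. Pgrmc1, a heme protein that binds P450s, rose in WT (0.48, adjusted p = 0.014) and was lower in NRF2 KO than in WT on MR (-0.56, adjusted p = 0.0097).

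Cyp2c55 (ENSMUSG00000025002, chr19:39007019-39042693, plus strand), an arachidonic acid hydroxylase of low abundance here, rose on MR in NRF2 KO and was not called in WT. NRF2 KO Con mice ran from 1.76 to 2.85 CPM (median 2.38; 25 to 53 counts) and NRF2 KO MR mice from 5.50 to 9.48 (median 6.50; 81 to 169 counts), without overlap. The increase was 2.96-fold (log2 1.56, SE 0.28, adjusted p = 0.00091). WT Con mice had 1.83, 2.05, 1.04, 6.36 and 4.66 CPM and WT MR mice 3.92, 3.79, 3.03, 3.01 and 4.32, so that the control mice lay on both sides of the restricted ones (0.19, adjusted p = 0.74). The highest control value was that of the library labelled WT_CON_7607, without which the estimate in WT was 0.56 (adjusted p = 0.20). On MR every NRF2 KO mouse lay above every WT mouse (0.94, SE 0.29), but the adjusted p was 0.096 in the fit of all groups. Leaving out WT_CON_7607 or WT_CON_7605, which are in neither MR group, gave 0.033 or 0.029. The estimate stayed at 0.94 in both cases, and the SE, which rests on a spread shared by all groups, fell to 0.24 and 0.23. The adjusted p was 0.037 by DESeq2 and 0.0013 in a fit of the compared groups only. It missed with library size only (adjusted p = 0.16), with all 24 mice (0.11) and by limma on the normalized values (0.11), and with the clock score as a covariate the estimate was 0.56 (adjusted p = 0.45). The MR effects differed by 1.37 (SE 0.42, unadjusted p = 0.0035, adjusted p = 0.39), and by 1.00 (adjusted p = 0.58) without WT_CON_7607.

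The classical target of AHR, Cyp1a2 (ENSMUSG00000032310, chr9:57676937-57683703, minus strand), was not called in any comparison. It was at 542.0 ± 76.8 CPM in WT Con and 516.1 ± 52.8 in WT MR, with an estimate of -0.07 and an interval of -0.47 to 0.33. In NRF2 KO it ran from 327.9 to 940.3 CPM on Con and from 390.9 to 466.8 on MR, so the restricted mice were all close together inside the control range (-0.54, adjusted p = 0.059). Without KO_CON_7621 or KO_CON_7622, the lowest mice of NRF2 KO Con, this estimate was -0.67 (adjusted p = 0.0081) or -0.64 (adjusted p = 0.018), and DESeq2 called it (adjusted p = 0.031). Without KO_CON_7617 it was -0.38 (adjusted p = 0.17), with library size only -0.37 (adjusted p = 0.18) and by limma on the normalized values -0.43 (adjusted p = 0.14). On MR the NRF2 KO mice all lay below the WT mice by a small margin (-0.27, adjusted p = 0.60), one of 3 members without overlap in that comparison, against 4.6% of all genes.

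The classical target of PXR, Cyp3a11 (ENSMUSG00000056035, chr5:145854426-145879964, minus strand), was called in none of the 5 comparisons. Control mice were spread widely, from 541.9 to 2545 CPM in WT and, in NRF2 KO, from 1229 to 4314, while restricted mice held to 1878 to 2519 and 2283 to 3408. The MR estimate was 0.33 in WT, with an interval of -0.35 to 1.01 (0.50, adjusted p = 0.42, with WT_CON_7607 left out), and 0.29 in NRF2 KO, with an interval of -0.33 to 0.91. A fit of the compared groups only placed NRF2 KO above WT on MR (0.40, adjusted p = 0.049), against an adjusted p of 0.66 in the fit of all groups.

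Cyp2c29 (ENSMUSG00000003053, chr19:39269405-39330713, plus strand) was at 435.0 ± 172.0 CPM in WT Con, 443.3 ± 77.1 in WT MR, 315.8 ± 69.7 in NRF2 KO Con and 462.2 ± 124.5 in NRF2 KO MR. It was not called in WT (0.03, adjusted p = 0.96) or NRF2 KO (0.55, adjusted p = 0.14). Without the library labelled WT_CON_7607, the lowest of all mice at 173.6 CPM, the estimate in NRF2 KO passed the threshold (0.55, adjusted p = 0.046). This library is in neither NRF2 KO group, so the estimate kept its size while its SE, from a spread shared by all groups, fell from 0.24 to 0.18. Without that library the MR estimate was -0.17 (adjusted p = 0.65) in WT, and NRF2 KO on Con stood at -0.66 (adjusted p = 0.085).

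Cyp2b10 (ENSMUSG00000030483, chr7:25897620-25926624, plus strand), the usual marker of CAR activation, was near the limit of detection, with 0 to 34 counts per library. Its mean was 0.53 CPM in WT Con, 1.57 in WT MR, 0.28 in NRF2 KO Con and 0.90 in NRF2 KO MR, and a single mouse, WT_MR_7615, held 5.12 CPM. The MR estimates were 1.31 in WT and 1.52 in NRF2 KO with intervals of -0.34 to 2.96 and -0.10 to 3.14, and without WT_MR_7615 the estimate in WT was 0.37, while without KO_CON_7620 that in NRF2 KO was 2.44. Neither an absence of change nor a large increase can be read from these counts. Of the windows at its 3′ end, 7.54% occur exactly in Cyp2b13.

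**Figure D4:**
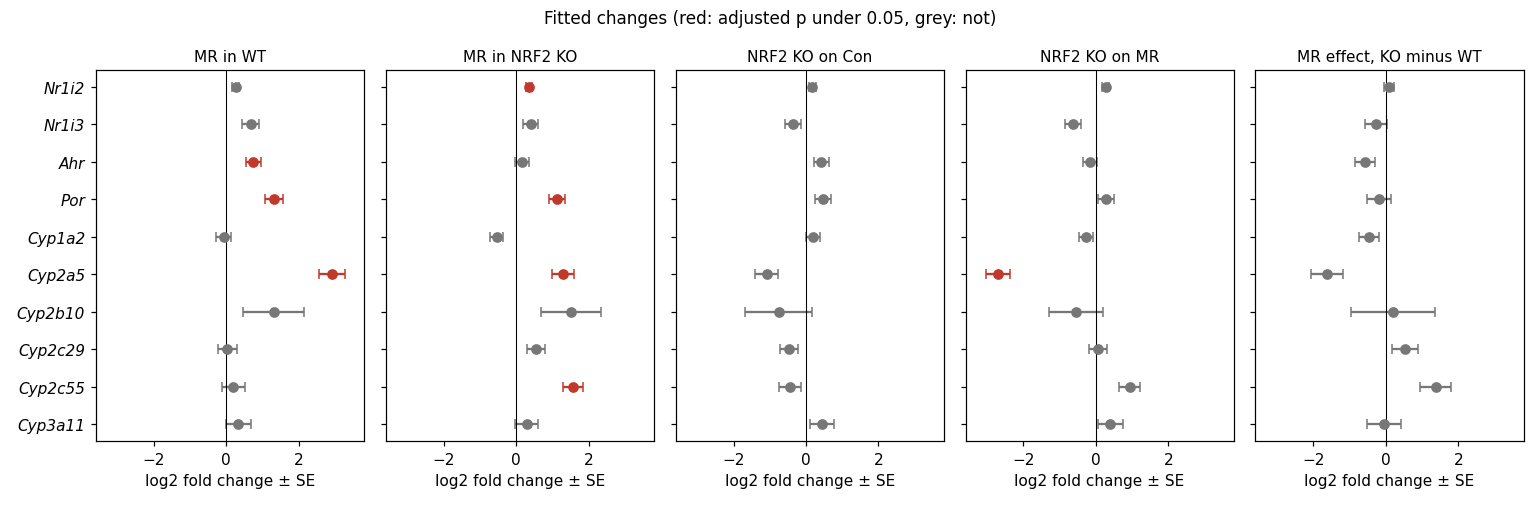
Fitted log2 fold change with its SE (horizontal axis) of the 10 genes (rows) in the 5 comparisons (panels), red where the adjusted p was under 0.05. Cyp2a5 reaches 2.92 for MR in WT and -2.71 for NRF2 KO on MR, and Cyp2b10 has the widest bars.

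Other genes known to respond to these receptors were taken from general lists compiled with results of these data known. Of 18 CAR-responsive genes 8 were called higher and 0 lower on MR in WT (median log2 change 0.78), and 6 higher and 2 lower in NRF2 KO (median 0.49). In NRF2 KO against WT, 3 of them were lower on Con and 6 on MR, with 0 higher, where 2.07% and 1.93% of all genes were called. Of 12 PXR-responsive genes 7 were higher on MR in WT (median 1.00) and 8 in NRF2 KO (median 0.85), and of 6 AHR-responsive genes 2 were higher in each. In NRF2 KO against WT, 2 PXR-responsive genes were lower and 0 higher on Con, and 2 were lower and 2 higher on MR. Of the AHR-responsive genes 2 were lower and 1 higher in NRF2 KO on each diet. Without the library labelled WT_CON_7607, 6 CAR-responsive and 5 PXR-responsive genes were higher on MR in WT, and 7 CAR-responsive genes were lower in NRF2 KO on MR. Of the 7 AHR-responsive genes then tested, 2 were higher on MR in each genotype and 1 was lower on MR in NRF2 KO. Over all genes tested the medians on MR were -0.0062 in WT and -0.0042 in NRF2 KO, and 6.91% and 6.23% were called higher. The lists share Ces2a and hold NRF2 targets such as Gstm1 and Nqo1.

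Abcc4, a transporter that exports conjugates from hepatocytes, rose in WT from 2.58 ± 0.49 to 24.4 ± 8.96 CPM (log2 3.22, adjusted p = 3.7e-08) and not past the threshold in NRF2 KO, from 2.67 ± 0.32 to 4.11 ± 1.64 (0.62, adjusted p = 0.10). This difference was itself called (-2.60, adjusted p = 0.0020). Abcb1a, a P-glycoprotein, rose in both, by 2.16 (adjusted p = 0.00014) and by 2.40 (adjusted p = 2.7e-05). Gstm3, a glutathione transferase, rose by 2.38 in WT (adjusted p = 0.0071), with 1.94 in NRF2 KO (adjusted p = 0.019) and was lower in NRF2 KO on both diets (-2.59 and -3.04). Gstm1 showed the same order, with 1.69 in WT, 1.10 in NRF2 KO, and -2.12 and -2.71 for NRF2 KO on Con and MR, all called.

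Among the AHR-responsive genes the 2 that rose were Nqo1 and Ugdh, which supplies UDP-glucuronate. Nqo1 rose by 1.74 in WT and by 1.90 in NRF2 KO, from 4.28 to 14.5 CPM and from 1.00 to 3.74 CPM, and Ugdh rose by 1.46 and by 1.06. Both were lower in NRF2 KO on Con and on MR. Akr1b7, an aldo-keto reductase, was called for MR in both genotypes, from 0.27 to 2.95 CPM in WT (adjusted p = 0.020) and from 0.21 to 6.10 CPM in NRF2 KO (adjusted p = 0.00078), with libraries at 0 counts on Con. Gsta1, a glutathione transferase, rose in WT from 2.74 to 16.7 CPM (adjusted p = 0.0022) and stood at 0.12 and 0.49 CPM in NRF2 KO.

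**Figure D5:**
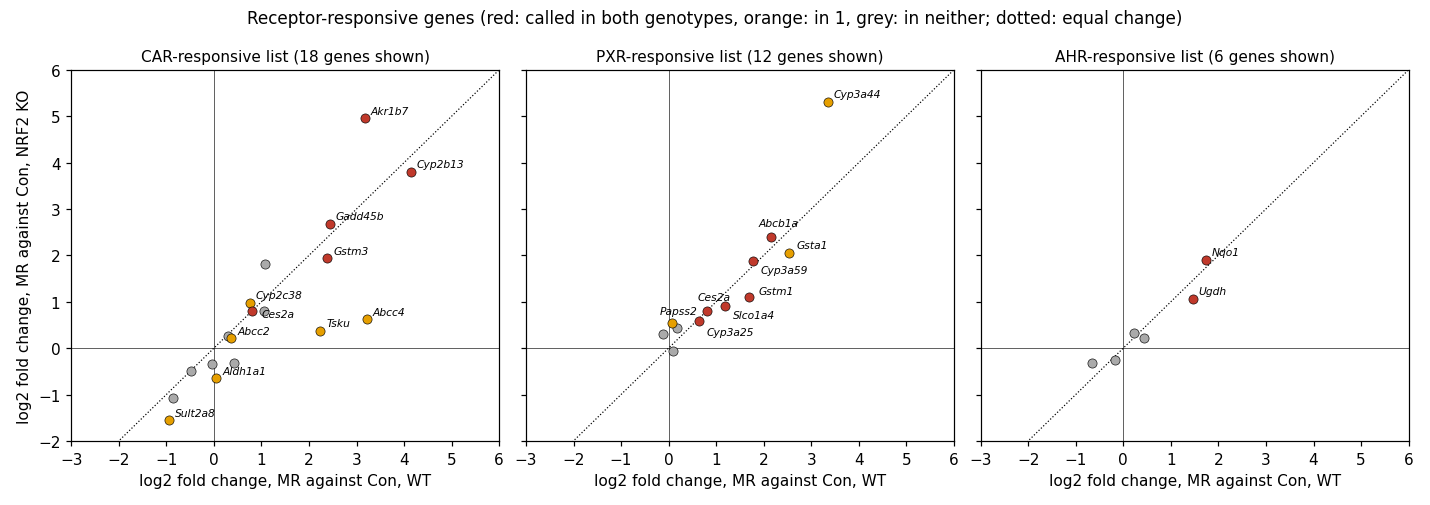
Log2 fold change on MR in NRF2 KO (vertical axis) against that in WT (horizontal axis) for the tested genes of the CAR, PXR and AHR lists, red where called in both genotypes, orange in 1 and grey in neither. Abcc4 lies far below the line of equal change, at 3.22 in WT and 0.62 in NRF2 KO, while Abcb1a and Nqo1 lie near it.

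Of the 33 other P450 genes of families 1 to 3, 6 were higher and 2 lower on MR in WT, and 11 higher and 6 lower in NRF2 KO. Leaving out WT_CON_7607 gave 4 higher of 34 in WT. Among all genes tested, 13.8% were called on MR in WT (6.91% higher) and 12.6% in NRF2 KO (6.23% higher). Called increases included those of Cyp2b13, Cyp2a4 and Cyp2a22 in WT and of Cyp2a4, Cyp3a44 and Cyp2a22 in NRF2 KO. Cyp2a22 went from 8.74 to 66.6 CPM in WT (log2 2.94, adjusted p = 0.0036), with a rise in NRF2 KO from 6.82 to 110.6 CPM (3.98, adjusted p = 0.00025). Cyp2b13 (0.26 to 4.54 CPM in WT, 0.15 to 2.25 in NRF2 KO) and Cyp3a44 (0.12 to 1.21 and 0.10 to 4.15) had libraries with 0 counts on Con, so their fold is not given. The 2 called falls in WT, Cyp2d40 (-1.13) and Cyp2j6 (-0.65), were also called in NRF2 KO (-0.77 and -0.49), where the 6 falls included Cyp2d9, more abundant in male liver, in NRF2 KO (-1.96, adjusted p = 0.0037).

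Several of these P450s differ by sex in mouse liver. Of 10 genes more abundant in females 5 were higher on MR in WT and 6 in NRF2 KO, with 0 lower in both (3 higher in WT without the library labelled WT_CON_7607), and of 6 more abundant in males 0 were called in WT and 3 were lower in NRF2 KO. On MR, 6.91% of all genes were called higher in WT and 6.23% in NRF2 KO. Cyp4a12a and Cyp4a12b, fatty acid hydroxylases of male liver, fell on MR in NRF2 KO (log2 -2.74 and -3.59, adjusted p = 0.024 and 0.0036).

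Some zonation and cell type markers also moved with MR, where 13.8% of all genes were called in WT and 12.6% in NRF2 KO. Of 12 pericentral hepatocyte genes 4 were lower in WT and 7 in NRF2 KO with 0 higher, among them Oat (-0.87 and -1.14) and Rgn (-0.72 and -0.51), and their summed level ran from 5028 to 6100 CPM in WT Con, 3952 to 4879 in WT MR, 5053 to 8511 in NRF2 KO Con and 4200 to 6007 in NRF2 KO MR. Of 12 periportal genes 1, Igf1, was lower in each genotype. Of 10 Kupffer cell markers 6 were lower in WT and 4 in NRF2 KO, of 8 stellate cell markers 6 and 4, and of 5 bile duct markers 4 and 1. Without the library labelled WT_CON_7607 the lower calls in WT were 3 pericentral, 5 Kupffer and 4 stellate genes. Hepatocyte markers were lower for 1 of 8 in each genotype, and endothelial markers higher for 0 and 1 of 8. The summed Kupffer markers were 421.7 to 564.7 CPM in WT Con, 334.2 to 377.7 in WT MR, 355.1 to 536.0 in NRF2 KO Con and 313.0 to 425.3 in NRF2 KO MR. In the same order the stellate markers summed to 197.2 to 315.0, 139.5 to 179.1, 217.5 to 276.5 and 197.1 to 252.0 CPM, and the bile duct markers to 49.0 to 72.7, 20.9 to 28.3, 31.7 to 53.1 and 20.6 to 29.0 CPM. The part of these shifts in the members' changes was not tested, and in whole liver fewer cells of a type and less RNA per cell cannot be told apart.

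Among 12 other enzymes of xenobiotic metabolism, 3 were higher on MR in each genotype, and 0 were lower on MR in WT and 3 in NRF2 KO. Between genotypes, 3 and 4 were lower in NRF2 KO than in WT on Con and MR. Without the library labelled WT_CON_7607, 4 were higher on MR in NRF2 KO, and 5 were lower in NRF2 KO than in WT on MR. For MR, 13.8% of all genes were called in WT and 12.6% in NRF2 KO. Between genotypes the share was 2.07% on Con and 1.93% on MR. Ephx1, the microsomal epoxide hydrolase, rose by 1.42 in WT and by 0.93 in NRF2 KO and was lower in NRF2 KO by 1.26 on Con and by 1.75 on MR on the log2 scale. Aox1, an aldehyde oxidase, had the same pattern by genotype (-1.93 on Con and -2.20 on MR), and Aox3 was lower in NRF2 KO (-1.23 and -1.21). Mgst1, a microsomal glutathione transferase, fell on MR in NRF2 KO (-0.72).

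The genes whose log2 CPM ran most like that of a member over the 22 mice were, for Cyp2a5, Rplp1 (Pearson r 0.949) and Gsta2 (0.944), for Por, Aifm2 (0.918) and Rhbdd2 (0.915), and for Cyp2c55, Tut4 (0.902) and Ccnd1 (0.852). For Cyp3a11 they were Mpp1 (0.902) and Gnb1 (0.874), for Ahr, Kti12 (0.827) and Cyp7a1 (0.811), for Nr1i2, Crym (0.818) and Rhobtb1 (0.794), and for Nr1i3, Eif3h (0.819) and Chdh (0.817). For Cyp2b10 they were Acss3 (0.833) and Prlr (0.780), for Cyp2c29, Lbp (0.815) and Fetub (0.759), and for Cyp1a2, 4933421O10Rik (0.688) and Akr1c6 (0.687). These values pool the groups and share the scaling of each library, and they are the highest of all genes, so they describe the mice and carry no test.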

How the data were processed

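Liver RNA of 24 male mice was sequenced as QuantSeq 3′ libraries. The authors deposited raw counts from the kit maker's QuantSeq pipeline 2.3.6 FWD; the aligner is not given in the sources used here. They also deposited a normalized signal, in which each mouse's counts were scaled with a DESeq2 size factor. The submitters' processing notes name GRCm38, R 3.4.3 and DESeq2 1.18.1.

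Counts of 22 mice were fitted with edgeR 4.0.16 in R 4.3.3 (TMM, filter by expression, robust quasi-likelihood F-tests, 1 mean per group), with Benjamini-Hochberg adjustment over 13336 genes and a 5% threshold. The SE of this fit is the absolute log2 fold change divided by the square root of the F statistic. Intervals are the estimate ± 1.96 SE, a normal approximation, so they can exclude 0 where the unadjusted p is just above 0.05. Alternatives used DESeq2 1.42.0, limma 3.58.1, other scalings, filters and mice. Simulated data with 200 changed genes among 13344 gave 162 true and 1 false calls for MR in WT, and 174 and 9 in NRF2 KO. The changed genes lay above a minimum mean level, and no simulated library stood apart from its group. These rates need not hold for genes at low counts or for the real libraries. Depth, 6197291 to 22068338 counts, limits genes such as Cyp2b10. Within groups, 50 pairs of libraries all differed beyond sampling noise (chi-square per degree of freedom 8.33 to 81.6). The labels give no batch.

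The members and lists were chosen with earlier results of these data known. Named genes are the members, up to 4 called genes of each list with the largest change, the 3 largest called rises and falls of other P450s, and the 2 genes most like each member; other names, the shared 3′ windows, the checks of the library labelled WT_CON_7607 and the receptor-target relations were chosen after values were seen. Some genes that meet this rule are not reported here. Positions are from GENCODE M21.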

Additional observations from a re-analysis of the deposited data

Results flagged for a closer look

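Among 44 groups of values tested for a mouse far from the rest, of which chance flags about 1 in 20, 2 were marked. The mouse KO_CON_7620 held 91.5 CPM of Nr1i3, against 40.1 to 57.8 in the other NRF2 KO Con mice, and the library labelled WT_CON_7607 held 324.0 CPM of Nfe2l2, against 106.3 to 125.0 in the other WT Con mice. Without KO_CON_7620 the change of Nr1i3 on MR was 0.61 in NRF2 KO (adjusted p = 0.045 by edgeR). In WT, whose groups do not hold this mouse, the estimate stayed at 0.67 while its SE fell from 0.23 to 0.19 (adjusted p = 0.024). That SE rests on a spread shared by all groups.

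The 2 mice set aside stood outside all 22 others in some members. Cyp2b10 was at 8.36 CPM in WT_CON_7604 and 17.4 CPM in WT_MR_7612, against 0 to 5.18 CPM in the rest. Cyp2a5 in WT_MR_7612 reached 2115 CPM, above the highest other mouse at 1780 CPM. Cyp1a2 was at 160.6 and 235.5 CPM in these mice, below the lowest other mouse at 330.3 CPM, and Nr1i3 in WT_CON_7604 was at 22.3 CPM, below the lowest of 37.4 CPM. These values use a scaling over all 24 mice.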

How the results depend on the processing

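No paired analysis was possible because replicate numbers are mouse numbers that no groups share. Over the alternatives, genes called for MR in NRF2 KO numbered 2785 with library size only and 2693 with all 24 mice and quality weights, and for MR in WT 1140 with the clock score as a covariate. For NRF2 KO on Con they were 449 by DESeq2, 99 with only the groups compared and 26 with the clock score, for NRF2 KO on MR 484, 600, 604 with quality weights and 170, and for the interaction 33 by DESeq2 and 3 with the clock score. Members called were 5 with library size only and 1 with the clock score for MR in WT, 1 by DESeq2 for NRF2 KO on Con, and 2 by DESeq2, 4 with only the groups compared and 2 with quality weights for NRF2 KO on MR. With 1 mouse left out, genes called ranged from 1416 to 1974 for MR in WT, 1188 to 2027 for MR in NRF2 KO, 181 to 314 and 191 to 336 for NRF2 KO on Con and on MR, and 3 to 12 for the interaction, and members called from 2 to 4, 4 to 5, 0 to 1, 1 to 2 and 0 to 0. The extremes by genotype came without WT_CON_7603 (181) and WT_CON_7607 (12 for the interaction); leaving out WT_CON_7605, WT_CON_7608, WT_MR_7613 or KO_MR_7632 gave 10 or 11 for the interaction, and WT_MR_7611, WT_MR_7616, KO_CON_7617, KO_CON_7618 or KO_MR_7625 gave 3. Member calls by genotype changed without WT_CON_7605, WT_CON_7607 or WT_CON_7608. With library size only the median change of all genes on MR was 0.0866 in WT and 0.152 in NRF2 KO, against -0.0062 and -0.0042 with TMM, and the share of calls that were higher went from 50% to 73.2% and from 49.6% to 86.1%.

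No called member changed direction. Signs turned where no call was made. With library size only, Cyp1a2 on MR in WT was 0.013 and the Cyp3a11 interaction 0.046; with all 24 mice, Cyp2c55 on MR in WT was -0.0096 and the Cyp3a11 interaction 0.11; with quality weights, Cyp1a2 on MR in WT was 0.032, Cyp2b10 for NRF2 KO on MR 0.037 and the Cyp3a11 interaction 0.21; and with limma on the normalized values, Cyp2b10 for NRF2 KO on MR was 0.15. With the clock score, Cyp2b10 and Cyp2c55 on MR in WT were -0.28 and -0.55, Por for NRF2 KO on Con, on MR and for the interaction -0.49, -0.075 and 0.42, and Cyp1a2 for NRF2 KO on Con -0.054. With 1 mouse left out, Cyp1a2 on MR in WT ranged from -0.13 to 0.0083, Cyp2c29 from -0.17 to 0.18 and Cyp2c55 from -0.049 to 0.56, Cyp2b10 and Cyp2c29 for NRF2 KO on MR from -0.90 to 0.39 and from -0.072 to 0.15, and the Cyp2b10 and Cyp3a11 interactions from -0.14 to 1.15 and from -0.21 to 0.21. The causes were not tested.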

Other observations

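Receptor and target levels were also compared within groups, as each mouse's deviation in log2 CPM from its group mean, over 22 mice and 21 receptor-target relations chosen after values were seen. Nr1i3 and Cyp2c29 deviated together (Pearson r 0.659, permutation p = 0.0012, adjusted p = 0.026; Spearman rho 0.590, adjusted p = 0.052). Without the 2 mice farthest from the median of Nr1i3, r was 0.468 (permutation p = 0.038). Ahr and Cyp3a11 also deviated together (r 0.599, permutation p = 0.0024, adjusted p = 0.026; rho 0.667, adjusted p = 0.019), with r 0.569 (permutation p = 0.0069) without 2 mice. Nr1i2 and Cyp3a11, receptor and classical target, gave r 0.242 (permutation p = 0.28). All pairs share each library's scaling. The permutations moved mice across groups, whose spreads differ, and did not allow for the fitted group means, so these p-values may be too small.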
